A study of Homo sapiens with 8 samples.

Results

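Expression of 39 genes for surface receptors, granule proteins and oxidase subunits of monocytes and granulocytes was examined in AML-OCI3 cells, a human acute myeloid leukaemia cell line. The 39 were taken by gene symbol, with no threshold on a measured value, from 24077 genes in the tables of both time points. The list was chosen with earlier results of these data known, so member shares set beside those of all genes are descriptions only. All 39 had at least 1 count in each of the 8 libraries. Cells were exposed to JIB-04 at 40 nM or to its solvent DMSO; the compound inhibits the Jumonji family of histone lysine demethylases. Poly(A) RNA was sequenced after 24 h or 48 h. The 4 groups were JIB-04 at 24 h, DMSO at 24 h, JIB-04 at 48 h and DMSO at 48 h, with 2 libraries each and 18783093 to 22193377 counts per library. The labels give no genotype and do not say whether the 2 libraries of a group came from separate cultures, so p-values measure the spread between these libraries, which may be technical. The study asked whether the compound sensitises leukaemia cells to venetoclax through ferroptosis.

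Myeloid precursors fill their primary (azurophil) granules with serine proteases and myeloperoxidase at the promyelocyte stage, whereas receptors such as the integrin CD11b, the scavenger receptor CD163 and the M-CSF receptor mark later monocytes and macrophages. Phagocytes kill microbes with the NADPH oxidase, whose membrane core of gp91phox and p22phox is switched on by cytosolic subunits. Leukaemic blasts are halted along this path and often carry a mixture of early granule genes and monocyte genes.

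Levels per transcript length, in the deposited TPM (transcript abundance scaled for length and depth), differed widely among the 39 genes. CTSG, the azurophil serine protease cathepsin G, had 2186 and 1685 TPM with JIB-04 at 24 h and 2319 and 2938 TPM with DMSO at 24 h. At 48 h CTSG had 2617 and 2245 TPM with JIB-04 and 3046 and 2634 TPM with DMSO. Cathepsin G alone made up 38.1% to 55.9% of the summed TPM of the 39 genes. By mean TPM over the 8 libraries, 12 members lay over 100, 13 between 10 and 100, 8 between 1 and 10, and 6 at 1 or below. The order from the top was CTSG, CYBA, LYZ, NCF4, CD68, FCER1G, AZU1, ITGB2, NCF1, PRTN3, CYBB and CD4, all over 100 TPM, with the ranges of neighbours from CYBA to CD68 overlapping. The low end held ITGAX, ITGAM, CSF2RA, LILRB1, CLEC7A and LILRB2. MPO, myeloperoxidase, ranged between 0.77 and 1.39 TPM, far below the 41.3 to 154 TPM of ELANE, the next lowest of the 5 azurophil members. ITGAM, the alpha chain of CD11b/CD18, ranged between 0.63 and 1.18 TPM, whereas ITGB2, the beta chain it pairs with, ranged between 123 and 215 TPM.

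**Figure D1:**
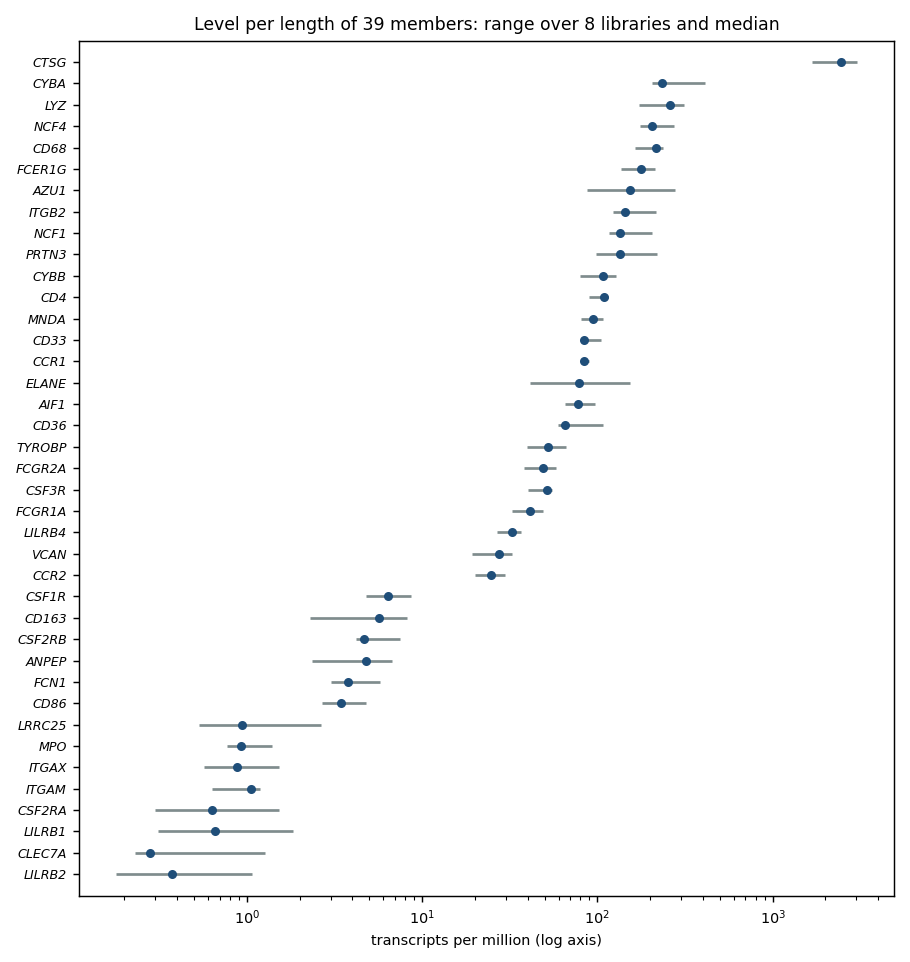
Level per length of the 39 genes in TPM (log axis), with a line for the range over the 8 libraries and a point for the median. CTSG stands at the top with a median of 2468 TPM, and MPO and ITGAM lie near 1 TPM.

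Other cell types were read from marker lists. Over 8 myeloid identity genes, members LYZ, CD33, CSF3R, MPO and ITGAM among them, the summed TPM was 741 to 763 with JIB-04 and 665 to 735 with DMSO at 24 h, and 661 to 694 with JIB-04 and 556 to 580 with DMSO at 48 h. Of these, LYZ had 260 and 272 TPM with JIB-04 and 172 and 181 TPM with DMSO at 48 h. CD33 had 83.4 and 82.5 TPM with JIB-04 and 84.1 and 85.1 TPM with DMSO at 48 h. CSF3R had 53 and 45 TPM with JIB-04 and 52.3 and 54.8 TPM with DMSO at 48 h. The gap between the 48 h sums was thus not shared by all 8 genes. Erythroid, megakaryocyte, B and plasma cell, epithelial and fibroblast lists each summed to at most 3.98 TPM in a library. The T and NK cell list had 17.6 to 19.3 TPM with JIB-04 and 9.88 to 10.1 TPM with DMSO at 48 h, and 17.6 to 22.6 TPM with JIB-04 and 12.9 to 20.1 TPM with DMSO at 24 h. Of its 10 genes, 4 are among those analysed, with NKG7 reaching 22.5 TPM; CD3D, CD3E, CD3G, CD2, KLRD1 and PRF1 are outside the genes shared by both tables and were not analysed here. The part of these genes in the results below was not tested. In bulk RNA, fewer cells of a kind and less RNA per cell cannot be told apart.

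In 3 of the 4 groups the 2 libraries differed by transcript GC content, which touches many of the 39 genes. Over 9529 well-expressed genes (genes are not independent), the rank correlation (Spearman's rho) of the replicate difference with GC content was 0.879 for JIB-04 at 24 h, -0.802 for DMSO at 24 h, 0.835 for JIB-04 at 48 h and 0.0224 for DMSO at 48 h. ELANE, PRTN3, AZU1 and CYBA, with a GC content of 66.8%, 66.4%, 63.4% and 61.3%, had the 4 largest differences of any member between the 2 DMSO libraries of 24 h. Tests below come from the fit without an adjustment unless stated. A second fit, in which the smooth trend on GC content was removed from each library, is given beside the members whose call it changed and some others.

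**Figure D2:**
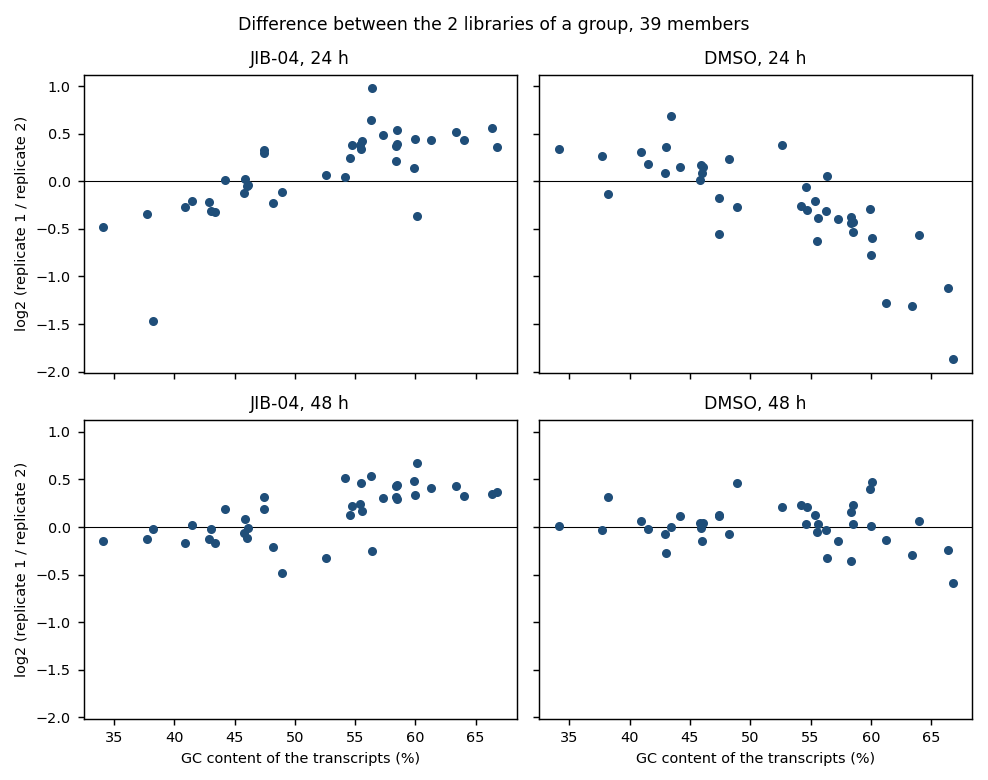
Log2 ratio of replicate 1 to replicate 2 of each group (y) against transcript GC content in percent (x), one point per gene for the 39 genes. ELANE lies at -1.87 in DMSO at 24 h and at 0.36 in JIB-04 at 24 h, and the DMSO 48 h points show little slope.

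At 48 h, 2 of the 38 members tested were higher with JIB-04 by edgeR's quasi-likelihood test at an adjusted p under 0.05, CD163 and LRRC25, and none was lower. Over all 15248 genes tested 0.387% passed in that fit. The remaining gene, CLEC7A (dectin-1, a receptor for fungal glucans), did not pass the filter on low counts, with 3 to 11 counts per library. The median log2 change of the 38 members was 0.17, against 0.01 for all genes, and 28 had a positive and 10 a negative log2 change. Without JIB-04 48 h replicate 2 the members' median was 0.27. At an unadjusted p under 0.05, 7 members were higher and 2 lower, where 9.69% of all genes reached that level.

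CD163 encodes the haemoglobin-haptoglobin scavenger receptor of macrophages. The gene overlaps CD163L1 on the same strand, and the assignment of reads between them was not examined. CD163 had 15.7 and 13.8 CPM (counts scaled to library size) with JIB-04 at 48 h and 7.24 and 6.67 CPM with DMSO at 48 h, from 289 and 291 counts and from 141 and 147 counts. At 24 h it had 18.7 and 18.6 CPM with JIB-04 and 17.9 and 16.1 CPM with DMSO. The 48 h DMSO libraries were the low ones: both lay below all 6 others, and the 48 h groups did not overlap. The log2 change with JIB-04 at 48 h was 1.08 ± 0.15 (SE; adjusted p = 0.0372 by edgeR), a 2.12-fold difference, and at 24 h it was 0.13 ± 0.14 (adjusted p = 0.803 by edgeR).

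LRRC25, a leucine-rich repeat membrane protein of myeloid cells, had 5.00 and 3.55 CPM with JIB-04 at 48 h and 1.23 and 0.907 CPM with DMSO at 48 h, on 92 and 75 counts and on 24 and 20 counts. At 24 h LRRC25 had 1.52 and 1.37 CPM with JIB-04 and 1.53 and 1.90 CPM with DMSO. For this gene the 48 h JIB-04 libraries were the high ones, above all 6 others. The log2 change with JIB-04 at 48 h was 2.0 ± 0.29 (SE; adjusted p = 0.0405 by edgeR), a 3.99-fold difference. Neither call held in every fit that left out 1 library: without either JIB-04 24 h library, either JIB-04 48 h library or either DMSO 48 h library the adjusted p by edgeR was 0.0615 to 0.48 for CD163 and 0.0634 to 0.468 for LRRC25, with log2 changes of 0.96 to 1.17 and of 1.71 to 2.22. Both passed with the GC trend removed, in the full fit (CD163 1.10 ± 0.13, LRRC25 1.81 ± 0.24) and in all 8 fits without 1 library.

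LYZ, lysozyme, and VCAN, the matrix proteoglycan versican made by monocytes, came next. Both overlap a gene on the other strand, and the strand setting of the counts is not known. LYZ had 211 and 207 CPM with JIB-04 at 48 h and 135 and 137 CPM with DMSO at 48 h, and 189 and 219 CPM with JIB-04 and 211 and 186 CPM with DMSO at 24 h. As for CD163, the 48 h DMSO libraries of LYZ lay below all others. VCAN had 195 and 214 CPM with JIB-04 at 48 h and 130 and 136 CPM with DMSO at 48 h, and 150 and 175 CPM with JIB-04 and 162 and 152 CPM with DMSO at 24 h. VCAN was highest in the 48 h JIB-04 libraries and lowest in the 48 h DMSO libraries. The log2 change at 48 h was 0.62 ± 0.12 for LYZ (adjusted p = 0.0981 by edgeR) and 0.62 ± 0.12 for VCAN (adjusted p = 0.0968), so neither passed. Removing the GC trend, after which 8.07% of all genes passed at 48 h, gave LYZ 0.64 ± 0.07 (adjusted p = 0.00129) and VCAN 0.64 ± 0.05 (adjusted p = 0.000297 by edgeR), and both also passed in all 8 fits without 1 library. In a fit of the 48 h libraries alone, in which 3.39% of 14620 genes passed, the members called were CD163, LRRC25, LYZ and VCAN. DESeq2 called the same 4 on all 8 libraries, where 0.931% of all genes passed.

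**Figure D3:**
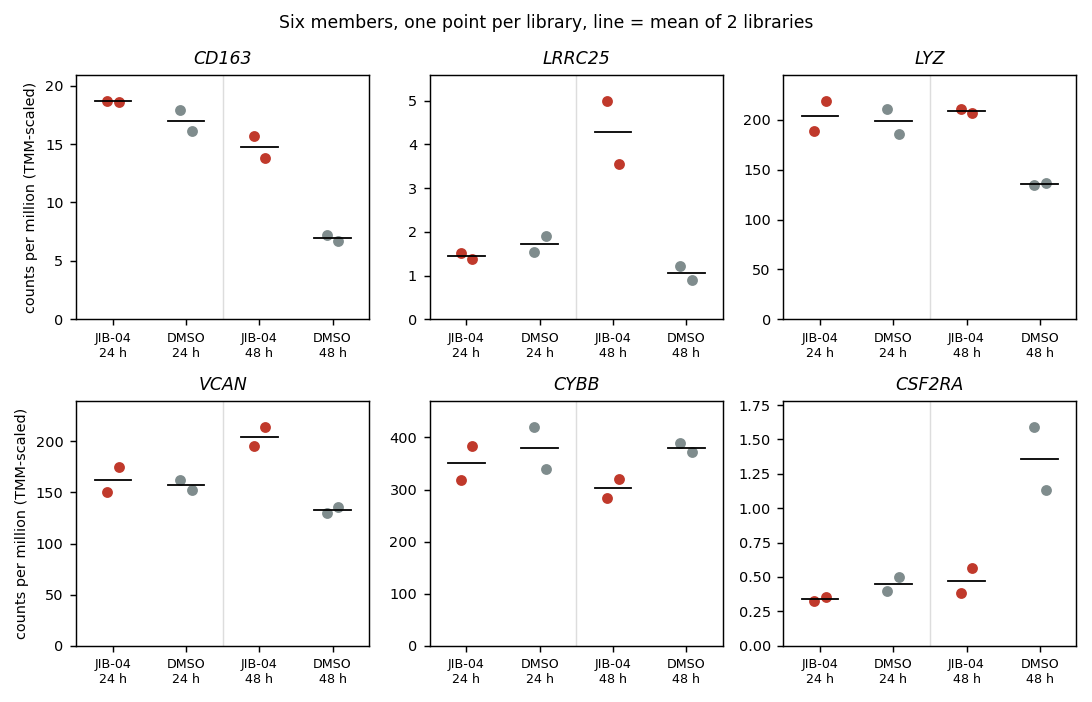
CPM of 6 genes in each library (points) with the mean of 2 libraries (line), JIB-04 in red and DMSO in grey. CD163 and LYZ are low in DMSO at 48 h, LRRC25 is high in JIB-04 at 48 h, and CSF2RA is high in DMSO at 48 h.

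Promoter sequences are shown for 3 genes called higher at 48 h with or without the GC adjustment, and for CYBB, called lower with it, from RefSeq on GRCh38.p14, which held 30 of the 39 members. Each window runs from 250 bases before to 50 after the gene's start, 5′ to 3′ on the gene's strand, and capitals mark GAGGAA, the core bound by the myeloid factor PU.1, or its reverse complement. The CD163 window is chr12:7503728-7504027 (minus strand), LRRC25 chr19:18397573-18397872 (minus), VCAN chr5:83471494-83471793 (plus) and CYBB chrX:37779809-37780108 (plus).
CD163: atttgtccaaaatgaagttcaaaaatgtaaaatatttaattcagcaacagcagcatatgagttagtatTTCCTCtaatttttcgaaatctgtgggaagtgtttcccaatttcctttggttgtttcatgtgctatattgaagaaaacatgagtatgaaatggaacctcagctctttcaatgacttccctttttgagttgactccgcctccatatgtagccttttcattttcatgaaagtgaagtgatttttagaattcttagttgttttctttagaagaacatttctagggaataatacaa
LRRC25: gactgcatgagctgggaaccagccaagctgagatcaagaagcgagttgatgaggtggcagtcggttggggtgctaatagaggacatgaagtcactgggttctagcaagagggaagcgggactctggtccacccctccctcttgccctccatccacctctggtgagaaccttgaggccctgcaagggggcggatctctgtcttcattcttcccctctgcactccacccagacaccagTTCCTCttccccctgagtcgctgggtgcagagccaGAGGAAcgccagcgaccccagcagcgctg
VCAN: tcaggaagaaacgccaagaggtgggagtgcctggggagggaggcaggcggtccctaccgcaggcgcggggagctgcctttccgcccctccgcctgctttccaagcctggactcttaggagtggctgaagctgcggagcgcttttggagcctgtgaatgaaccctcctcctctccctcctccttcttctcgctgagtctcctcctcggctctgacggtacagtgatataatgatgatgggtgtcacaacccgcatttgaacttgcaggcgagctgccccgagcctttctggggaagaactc
CYBB: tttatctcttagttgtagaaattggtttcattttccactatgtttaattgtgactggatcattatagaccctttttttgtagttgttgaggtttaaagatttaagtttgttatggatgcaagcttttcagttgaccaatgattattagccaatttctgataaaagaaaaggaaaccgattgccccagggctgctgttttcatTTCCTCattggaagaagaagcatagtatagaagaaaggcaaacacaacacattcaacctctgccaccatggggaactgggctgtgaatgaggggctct
The core begins at -182 relative to the start in CD163, at -14 and 22 in LRRC25 and at -48 in CYBB, and is not among these letters in VCAN. On either strand it was in 19 of the 30 member windows (63.3%) and in 27.6% of all 27305 windows. TTGCNNAA, a C/EBP-type motif, was in 7 of 30 (23.3%) and 10.6% of all, CD163 included at -211, and TGANTCA, an AP-1-type motif, in 3 of 30 and 7.76% of all. These matches are descriptions of sequence, and binding was not measured.

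None of the 4 growth factor receptors passed at 48 h by edgeR. CSF2RA, the alpha chain of the GM-CSF receptor, had 0.380 and 0.568 CPM with JIB-04 at 48 h and 1.59 and 1.13 CPM with DMSO at 48 h, from 7 and 12 counts and from 31 and 25 counts. At 24 h CSF2RA had 0.322 and 0.355 CPM with JIB-04 and 0.396 and 0.498 CPM with DMSO. The 2 DMSO libraries of 48 h were the high ones. The log2 change with JIB-04 at 48 h was -1.49 ± 0.40 (adjusted p = 0.246 by edgeR), which did not pass, and with the GC trend removed it was -1.48 ± 0.39 (adjusted p = 0.0519). CSF2RB, the shared beta chain, had 0.10 ± 0.24, CSF3R, the G-CSF receptor, -0.04 ± 0.18 and CSF1R, the M-CSF receptor, 0.39 ± 0.22, and none passed at 48 h.

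The integrin chain ITGAX (CD11c) had 3.91 and 2.65 CPM with JIB-04 at 48 h and 1.64 and 1.68 CPM with DMSO at 48 h, and 2.90 and 1.82 CPM with JIB-04 and 1.58 and 1.99 CPM with DMSO at 24 h. The 48 h groups did not overlap and the 24 h groups did. Its log2 change at 48 h was 0.97 ± 0.31 (adjusted p = 0.362 by edgeR), and 0.90 ± 0.23 with the GC trend removed (adjusted p = 0.0461), a call kept in 2 of 8 fits without 1 library. ITGAM had 0.47 ± 0.26 and ITGB2 0.11 ± 0.25 at 48 h, and neither passed; the sign for ITGB2 turned with the GC trend removed, at -0.08 ± 0.07.

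Of the Fc receptors and their adaptors, FCGR1A, the high-affinity IgG receptor CD64, had 28.4 and 29.3 CPM with JIB-04 at 24 h and 39.3 and 36.9 CPM with DMSO at 24 h, and 27.8 and 30.2 CPM with JIB-04 and 31.6 and 35.1 CPM with DMSO at 48 h. In CPM the groups did not overlap at either time. In TPM FCGR1A overlapped at 48 h, with 36.2 and 44.4 TPM for JIB-04 and 32.7 and 38.4 TPM for DMSO. The log2 change was -0.40 ± 0.13 at 24 h (adjusted p = 0.339 by edgeR) and -0.20 ± 0.13 at 48 h (adjusted p = 0.656). FCGR1A passed as lower at 24 h once the GC trend was removed, with -0.43 ± 0.07 (adjusted p = 0.00879), in the full fit and in 7 of 8 fits without 1 library. Reads of near-identical FCGR1 copies may be split between them, so this value is uncertain. FCER1G, the common gamma chain, had 0.33 ± 0.14, FCGR2A (CD32a) 0.16 ± 0.11 and TYROBP (DAP12) 0.24 ± 0.22 at 48 h, none of which passed.

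Of 8 inhibitory and lineage surface proteins, LRRC25 alone passed at 48 h by edgeR. LILRB1, an inhibitory receptor for MHC class I, had 0.978 and 1.18 CPM with JIB-04 at 48 h and 0.411 and 0.544 CPM with DMSO at 48 h, and 2.39 and 1.17 CPM with JIB-04 and 1.19 and 1.13 CPM with DMSO at 24 h. The 48 h groups stood apart, on 8 to 25 counts, and replicate 1 of JIB-04 at 24 h was above all others. Its log2 change was 1.16 ± 0.45 at 48 h (adjusted p = 0.466 by edgeR) and 0.62 ± 0.38 at 24 h (adjusted p = 0.618). LILR genes are alike in sequence and LILRB1 has an antisense partner, so its counts are uncertain.

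CD33, a sialic acid-binding inhibitory receptor used as a leukaemia target, had 95.2 and 93.6 CPM with JIB-04 and 88.1 and 78.1 CPM with DMSO at 24 h, and 86.4 and 81.5 CPM with JIB-04 and 82.7 and 83.1 CPM with DMSO at 48 h. CD4, present on monocytes as well as T cells, had 233 and 196 CPM with JIB-04 and 235 and 245 CPM with DMSO at 24 h, and 236 and 216 CPM with JIB-04 and 256 and 250 CPM with DMSO at 48 h. The CD33 groups overlapped at 48 h only, and CD4 was lower in both JIB-04 libraries at each time by a narrow margin. The log2 changes at 24 h were 0.18 ± 0.11 for CD33 (adjusted p = 0.608 by edgeR) and -0.16 ± 0.12 for CD4 (adjusted p = 0.672), and those at 48 h were 0.02 ± 0.11 and -0.16 ± 0.12. LILRB4 (0.14 ± 0.15), LILRB2 (-0.74 ± 0.53), CD86 (0.02 ± 0.25) and ANPEP (0.50 ± 0.22) did not pass at 48 h either.

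Of the scavenger and chemokine receptors beside CD163, CD68, a lysosomal macrophage glycoprotein, had 198 and 152 CPM with JIB-04 and 189 and 219 CPM with DMSO at 24 h, and 251 and 212 CPM with JIB-04 and 247 and 226 CPM with DMSO at 48 h. The groups overlapped at both times, and the log2 change was -0.22 ± 0.16 at 24 h (adjusted p = 0.675 by edgeR) and -0.03 ± 0.16 at 48 h. FCN1, ficolin-1, a secreted lectin of monocytes, had 4.69 and 3.80 CPM with JIB-04 and 4.45 and 6.57 CPM with DMSO at 24 h, and 6.25 and 4.97 CPM with JIB-04 and 4.31 and 3.95 CPM with DMSO at 48 h. FCN1 overlapped at 24 h and not at 48 h, with log2 changes of -0.38 ± 0.24 (adjusted p = 0.64 by edgeR) and 0.44 ± 0.24 (adjusted p = 0.612). CD36, a fatty acid and oxidised lipid receptor, had 0.13 ± 0.18 at 48 h, CCR1 0.09 ± 0.10 and CCR2 0.27 ± 0.17, and none passed. Among the intracellular members, AIF1 had 0.15 ± 0.18 and MNDA, a nuclear antigen of myeloid cells, -0.24 ± 0.15. MNDA had 95.2 and 121 CPM with JIB-04 and 126 and 104 CPM with DMSO at 24 h, which overlap, and passed as lower there with the GC trend removed, at -0.26 ± 0.06 (adjusted p = 0.025 by edgeR), in 3 of 8 fits without 1 library.

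The azurophil granule genes ELANE (neutrophil elastase), AZU1 (azurocidin) and PRTN3 (proteinase 3) lie next to each other on chromosome 19, between 825097 and 856247 on hg38, and are 3 of the 4 members of highest transcript GC content. ELANE had 54.2 and 42.2 CPM with JIB-04 at 24 h and 24.6 and 90.2 CPM with DMSO at 24 h, and 66.4 and 51.4 CPM with JIB-04 and 31.9 and 48.2 CPM with DMSO at 48 h. AZU1 had 181 and 126 CPM with JIB-04 and 92.5 and 230 CPM with DMSO at 24 h, and 196 and 146 CPM with JIB-04 and 111 and 136 CPM with DMSO at 48 h. PRTN3 had 107 and 72.6 CPM with JIB-04 and 66.4 and 145 CPM with DMSO at 24 h, and 129 and 101 CPM with JIB-04 and 78.8 and 93.3 CPM with DMSO at 48 h. In each of the 3 genes the 2 DMSO libraries of 24 h enclosed both JIB-04 libraries, and at 48 h both JIB-04 libraries lay above both DMSO libraries.

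At 48 h the log2 changes were 0.55 ± 0.50 for ELANE, 0.47 ± 0.38 for AZU1 and 0.42 ± 0.34 for PRTN3, with adjusted p of 0.711 to 0.741 by edgeR. Once the GC trend was removed they were 0.14 ± 0.20, 0.16 ± 0.13 and 0.02 ± 0.06, so the 48 h gap shrank in all 3. At 24 h PRTN3 had -0.25 ± 0.06 with the trend removed (adjusted p = 0.0329), against -0.23 ± 0.34 without it (adjusted p = 0.867), and it passed in 0 of 8 fits without 1 library.

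CTSG had 1198 and 918 CPM with JIB-04 at 24 h and 1325 and 1637 CPM with DMSO at 24 h, and 1620 and 1395 CPM with JIB-04 and 1796 and 1557 CPM with DMSO at 48 h. Its 24 h groups did not overlap, with JIB-04 lower, and its 48 h groups overlapped in CPM but not in the TPM given above. The log2 change was -0.49 ± 0.16 at 24 h (adjusted p = 0.356 by edgeR) and -0.15 ± 0.16 at 48 h (adjusted p = 0.789). CTSG passed as lower at 24 h in the GC-adjusted fit, at -0.44 ± 0.08 (adjusted p = 0.0101), and in 7 of 8 fits without 1 library. MPO had 2.62 and 1.77 CPM with JIB-04 and 2.23 and 3.26 CPM with DMSO at 24 h, and 2.28 and 1.66 CPM with JIB-04 and 2.52 and 2.13 CPM with DMSO at 48 h. MPO groups overlapped at both times, and its log2 changes were -0.32 ± 0.31 and -0.24 ± 0.32.

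**Figure D4:**
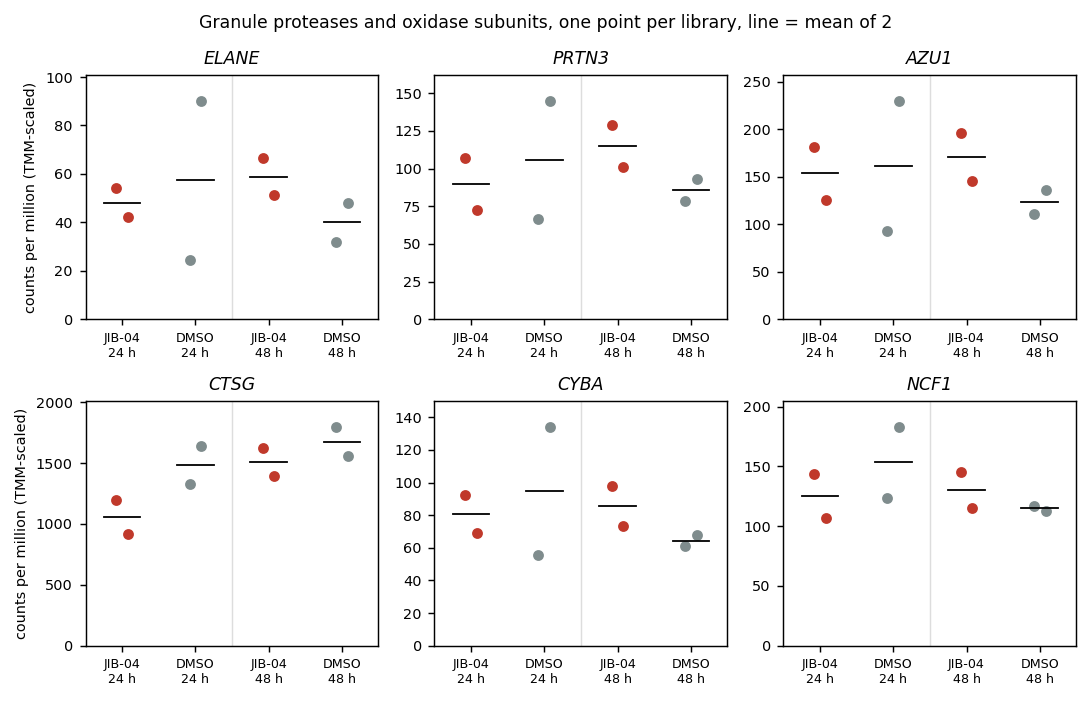
CPM of 4 azurophil granule proteins and 2 oxidase subunits in each library (points) with the mean of 2 libraries (line), JIB-04 in red and DMSO in grey. For ELANE, PRTN3, AZU1 and CYBA the 2 DMSO 24 h points lie farthest apart, at 24.6 and 90.2 CPM for ELANE.

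Among the NADPH oxidase genes, CYBB, which encodes gp91phox, had 284 and 320 CPM with JIB-04 at 48 h and 389 and 372 CPM with DMSO at 48 h, and 318 and 384 CPM with JIB-04 and 420 and 339 CPM with DMSO at 24 h. The 48 h groups did not overlap, with JIB-04 lower. The log2 change of CYBB at 48 h was -0.33 ± 0.14 (adjusted p = 0.502 by edgeR), which did not pass. After removal of the GC trend it passed, at -0.32 ± 0.05 (adjusted p = 0.00928), and in 5 of 8 fits without 1 library. At 24 h CYBB had -0.11 ± 0.14, and -0.22 ± 0.05 with the trend removed (adjusted p = 0.0329), passing in 3 of 8 such fits.

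CYBA, which encodes p22phox, had 97.7 and 73.6 CPM with JIB-04 and 61.2 and 67.7 CPM with DMSO at 48 h, and 92.6 and 68.9 CPM with JIB-04 and 55.3 and 134 CPM with DMSO at 24 h. Its partner in the membrane core, CYBB, thus had the opposite sign at 48 h, CYBA standing at 0.41 ± 0.36 (adjusted p = 0.734 by edgeR) and, with the GC trend removed, at 0.18 ± 0.16 (adjusted p = 0.533). The cytosolic subunit NCF1 (p47phox) had 145 and 115 CPM with JIB-04 and 117 and 113 CPM with DMSO at 48 h, and 144 and 107 CPM with JIB-04 and 124 and 183 CPM with DMSO at 24 h. NCF1 overlapped between the groups at both times. Its log2 change at 48 h was 0.17 ± 0.21 without and -0.15 ± 0.10 with the trend removed, so its sign depended on the adjustment, and NCF1 shares near-identical pseudogene copies that leave its counts uncertain. NCF1 at 24 h had -0.29 ± 0.21 (adjusted p = 0.687 by edgeR), and -0.35 ± 0.10 with the trend removed (adjusted p = 0.048), a call kept in 1 of 8 fits without 1 library. NCF4 (p40phox) had 237 and 194 CPM with JIB-04 and 185 and 181 CPM with DMSO at 48 h, and 245 and 186 CPM with JIB-04 and 196 and 265 CPM with DMSO at 24 h. NCF4 did not overlap at 48 h, at 0.24 ± 0.19 (adjusted p = 0.707 by edgeR).

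At 24 h none of the 38 members passed by edgeR, and 0% of the 15248 genes did. At an unadjusted p under 0.05, 2 members, FCGR1A and CTSG, were lower, where 10.8% of all genes reached that level. DESeq2 called no member at 24 h, where it called 0.582% of all genes, and 2 members were at an unadjusted p under 0.05 by DESeq2, as were 6.91% of all genes. The members' median log2 change was -0.09 against 0.02 for all genes, and it was 0.06 without DMSO 24 h replicate 2 and -0.17 without DMSO 24 h replicate 1. After that adjustment 6 members were lower at 24 h and none higher, CTSG, FCGR1A, NCF1, MNDA, CYBB and PRTN3, which is 15.8% of the 38 against 10.9% of all genes. All 6 lost that call when the GC trend was removed in the 24 h libraries alone, where 0 members and 2.14% of all genes passed. At 48 h the GC-adjusted fit called 5 members higher (VCAN, LYZ, ITGAX, LRRC25, CD163) and CYBB lower, again 15.8% of the 38, against 8.07% of all genes. In the 48 h libraries alone, where 14.2% of all genes passed, the GC-adjusted calls were CD163, LRRC25, LYZ, VCAN, ITGAX, FCER1G, CYBB, CD4, CSF2RA and MNDA.

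In the authors' deposited table, where 0.091% of 25265 genes had an adjusted p under 0.05 at 24 h and 3.43% of 12773 did at 48 h, no member passed at 24 h and 5 of 35 members with an adjusted p passed at 48 h. Those 5 were CD163, LRRC25, LYZ, VCAN and CYBB, with log2 fold changes in the authors' deposited table of 1.08, 1.99, 0.61, 0.61 and -0.34.

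**Figure D5:**
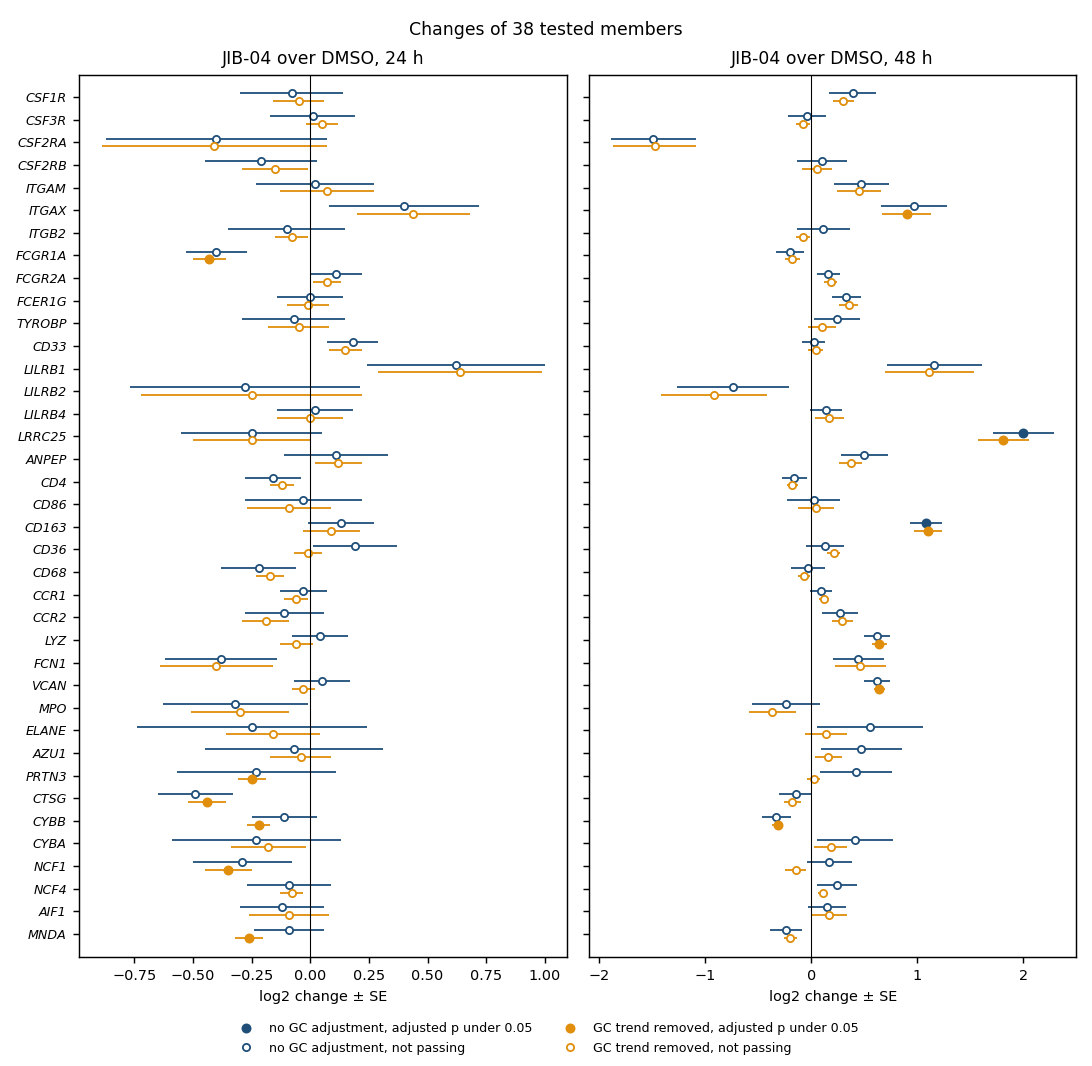
Log2 change of JIB-04 over DMSO ± SE (x) for 38 genes at 24 h (left) and 48 h (right), without an adjustment in blue and with the GC trend removed in orange, filled where the adjusted p by edgeR was under 0.05. At 48 h the filled blue points are CD163 at 1.08 and LRRC25 at 2.0.

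The effect of JIB-04 at 48 h minus that at 24 h was tested as an interaction. No member passed and 0% of all genes did by edgeR. At an unadjusted p under 0.05, 5 members had a positive difference and none a negative one, where 5.23% of all genes reached that level. By DESeq2 no member and 0.0787% of all genes passed, and 4 members and 2.71% of all genes were under 0.05 unadjusted. The smallest p belonged to LRRC25, with a difference of 2.25 ± 0.42 (adjusted p = 0.668), and then to CD163 at 0.95 ± 0.21, LYZ at 0.58 ± 0.17 and VCAN at 0.57 ± 0.17, with adjusted p of 0.761 to 0.931 by edgeR. With the GC trend removed, where 1.09% of all genes passed, the members passing were VCAN at 0.67 ± 0.08, LYZ at 0.70 ± 0.10, LRRC25 at 2.07 ± 0.35 and CD163 at 1.02 ± 0.18, with adjusted p of 0.0156 to 0.0394. Without 1 library these calls were kept in 2, 3, 2 and 1 of 8 fits.

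Change over time in culture was tested as 1 comparison for each arm, in the fit of all 8 libraries. The comparison in the JIB-04 arm was added after the data were seen. The DMSO comparison and the 48 h comparison share the DMSO 48 h libraries, so their values are given side by side only. In DMSO, 1 member passed by edgeR, CD163, which was lower at 48 h than at 24 h by a log2 change of -1.29 ± 0.15 (adjusted p = 0.0188 by edgeR), while 0.426% of all genes passed. It lost that call without either DMSO 48 h library (adjusted p = 0.241 and 0.339) and in a fit of the DMSO libraries alone (-1.34, adjusted p = 0.113), where 0% of all genes passed. DESeq2 called CD163 and LYZ lower in this comparison, with 1.75% of all genes passing. LYZ had -0.54 ± 0.12 (adjusted p = 0.119 by edgeR) and CSF2RA 1.59 ± 0.40 (adjusted p = 0.15). ANPEP, the aminopeptidase CD13, had 6.93 and 6.21 CPM with DMSO at 48 h and 9.15 and 12.5 CPM with DMSO at 24 h, a log2 change of -0.72 ± 0.22 (adjusted p = 0.24 by edgeR). With JIB-04, ANPEP had 10.3 and 8.24 CPM at 48 h and 13.1 and 10.1 CPM at 24 h.

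With the GC trend removed, 13.6% of all genes and 11 of 38 members passed between DMSO at 48 h and at 24 h. CSF3R (0.38 ± 0.07), CD68 (0.25 ± 0.06) and CSF2RA (1.57 ± 0.39) were higher, and CD163 (-1.33 ± 0.13), ANPEP (-0.63 ± 0.11), LYZ (-0.60 ± 0.07), CD36 (-0.47 ± 0.06), FCER1G (-0.39 ± 0.09), FCGR2A (-0.36 ± 0.06), VCAN (-0.29 ± 0.05) and NCF4 (-0.25 ± 0.05) were lower. CD163, LYZ and CD36 passed in all 8 fits without 1 library.

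In the JIB-04 arm no member passed between 48 h and 24 h by edgeR, where 0.203% of all genes did, and 7 members were at an unadjusted p under 0.05, as were 8.57% of all genes. DESeq2 called none (0.703% of all genes), with 5 at an unadjusted p under 0.05 (5.39% of all genes). CD163 had -0.34 ± 0.15, LYZ 0.03 ± 0.12, VCAN 0.33 ± 0.12 and LRRC25 1.56 ± 0.28. With the GC trend removed, where 6.51% of all genes passed, LRRC25 (1.48 ± 0.23), CTSG (0.47 ± 0.08), CSF1R (0.44 ± 0.11), VCAN (0.38 ± 0.05) and CD68 (0.35 ± 0.06) were higher and CD36 (-0.25 ± 0.06) was lower. Not every one of these calls held without 1 library. The log2 changes in those fits were 1.35 to 1.59 for LRRC25, 0.40 to 0.55 for CTSG and 0.36 to 0.53 for CSF1R. They were 0.36 to 0.41 for VCAN, 0.30 to 0.42 for CD68 and -0.31 to -0.19 for CD36. Placed side by side for CD163 with the trend removed, the change with time was -0.31 ± 0.12 with JIB-04 and -1.33 ± 0.13 with DMSO.

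Partners of these proteins were followed in 8 lists, of which 1 gene passed by edgeR between JIB-04 and DMSO without the GC adjustment. STAT5A, a transcription factor downstream of the GM-CSF, G-CSF and IL-3 receptors, was higher at 48 h by a log2 change of 1.97 ± 0.26 (adjusted p = 0.0343 by edgeR), at levels of 0.59 to 2.55 TPM over the 8 libraries, and had 1.5 ± 0.25 at 24 h (adjusted p = 0.122). With the adjustment STAT5A passed at both times, at 1.54 ± 0.19 at 24 h (adjusted p = 0.00235 by edgeR) and 1.87 ± 0.20 at 48 h (adjusted p = 0.000895). Without the adjustment STAT5A was the 1 of 11 tested cytokine receptor partners that passed at 48 h, and their median log2 change was 0.51. With the adjustment JAK2, PIM1, SOCS3 and STAT3 also passed at 48 h, and the median was 0.44. Without it none of 8 oxidase partners passed at 48 h: HVCN1, a voltage-gated proton channel, had 0.44 ± 0.13 (adjusted p = 0.319 by edgeR) and RAC2, the oxidase's small GTPase, 0.24 ± 0.16 (adjusted p = 0.67).

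None of 17 tested ITAM and Fc signalling genes passed at 48 h, with SIRPB1 at 0.49 ± 0.15 and TREM1 at 0.60 ± 0.26. None of 14 other LILR, SIGLEC, CD300 and similar surface receptors did, with LILRA2 at 0.54 ± 0.16 and LILRA1 at 0.78 ± 0.25. None of 13 other adhesion genes did, with PECAM1 (CD31) at 1.17 ± 0.25 and ITGB7 at 1.08 ± 0.37. None of 11 other granule proteins did, with MMP9, gelatinase B, at 1.30 ± 0.34 and CST7 at 0.77 ± 0.25, none of 11 other macrophage surface genes did, with MERTK at 0.36 ± 0.14, and none of 7 chemoattractant receptors did, with CXCR4 at 0.30 ± 0.12. No gene of the 8 lists passed at 24 h by edgeR without the adjustment. In the GC-adjusted fit LCP2, PLCG2, JAK2, STAT3, STAT5A, CD44 and SCARB2 passed as higher at 24 h, and ARHGDIB, RAC1, TREM1, RNASE2, CXCR2 and CXCR4 as lower. The genes passing as higher at 48 h with the trend removed were HVCN1, SIRPB1, JAK2, PIM1, SOCS3, STAT3, STAT5A, LILRA2, CD44, PECAM1, MERTK, SCARB2 and MMP9, and those lower were OSCAR, LAIR1, SIRPA, ITGAL and SERPINB1. Over all genes, 10.9% passed at 24 h and 8.07% at 48 h in the GC-adjusted fit. MMP9 had 1.02 ± 0.12 in that fit (adjusted p = 0.00177 by edgeR).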

How the data were processed

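Poly(A) RNA of 8 libraries was analysed. Per the submitters' processing notes, the tools were cutadapt, STAR 2.6.1 and RSEM on hg38. No source used here gives the strand setting, so reads of a gene and an antisense partner cannot be told apart. Members that overlap a gene on the other strand include LILRB1, VCAN, LYZ, NCF4 and ITGB2. The deposited expected counts per gene, which were whole numbers, were joined over the 24 h and 48 h tables (24077 genes in both; 0.00581% of counts left out). The deposited TPM values were used for levels per length, and the log2 fold changes and p-values in the authors' deposited table are quoted as theirs.

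Genes passing edgeR's filterByExpr (minimum count 10) were tested, 15248 in all, with TMM scaling and the quasi-likelihood test on all 8 libraries (edgeR 4.0.16, limma 3.58.1, DESeq2 1.42.0, R 4.3.3), with 4 residual degrees of freedom and Benjamini-Hochberg adjustment at 0.05. CPM values are TMM-scaled. The GC adjustment removed a lowess curve (span 0.2) on transcript GC content from each library. Statistics were tested on simulated data. Named members are those that passed, the 8 of smallest p in each JIB-04 comparison, the 4 of smallest p in the interaction and in DMSO over time, and all oxidase and azurophil members; the partner lists name the genes that passed, or up to 2 of smallest p at 48 h. The members and lists were chosen with earlier results of these data known. Alternatives covered normalization, filtering, DESeq2, limma-voom, fewer groups, a replicate block, the GC trend and each library left out.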

Additional observations from a re-analysis of the deposited data

Results flagged for a closer look

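With the GC trend removed, 4 of 38 members passed by edgeR when the JIB-04 effects at 48 h and 24 h were compared. In that fit 1.09% of all genes passed, and the 4 calls did not hold in every fit without 1 library. The difference, 48 h minus 24 h on the log2 scale, was 2.07 for LRRC25, 1.02 for CD163, 0.70 for LYZ and 0.67 for VCAN. Without the adjustment the differences were 2.25, 0.95, 0.58 and 0.57, and none passed.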

How the results depend on the processing

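The number of members passing in each of the 5 comparisons was the same with RLE scaling, with no filter and by limma-voom. With the GC trend removed 6 members passed at 24 h, 6 at 48 h, 4 in the interaction, 11 in DMSO over time and 6 in JIB-04 over time; with the replicate block added these were 5, 5, 3, 11 and 4. With the trend removed and 1 library left out (added after the values were seen), 0 to 5 passed at 24 h (0 without JIB-04 24 h replicate 2, otherwise 2, 3, 4 or 5), 4 to 8 at 48 h (4, 5, 6 or 8), 0 to 5 in the interaction (1, 3 or 5 where any passed), 3 to 12 in DMSO over time (3, 4, 10, 11 or 12) and 1 to 9 in JIB-04 over time (1, 2, 3, 4, 8 or 9). With the trend removed in the libraries of 1 time alone, 0 members passed at 24 h (2.14% of all genes) and 10 at 48 h (14.2% of all genes). DESeq2 passed 4 at 48 h and 2 in DMSO over time, and fits of the compared groups alone passed 4 and 0. The labels do not say whether same-numbered libraries belong together. Replicate differences correlated between -0.77 and 0.824 from group to group. Except in DMSO at 48 h these differences followed GC content, so the correlations cannot show whether libraries were paired. The replicate block left 0 members passing at 48 h and 0 in DMSO over time, as did the crossed replicate block. Without 1 library and without the adjustment, the calls at 48 h and in DMSO over time were lost in some fits. Signs turned at 24 h for AZU1 (0.04) and ELANE (0.01) by limma-voom, and for 7 genes without 1 library, with ranges of -0.58 to 0.73 for AZU1, -0.73 to 0.55 for CYBA, -0.26 to 0.05 for CYBB, -0.90 to 0.97 for ELANE, -0.54 to 0.02 for NCF1, -0.30 to 0.14 for NCF4 and -0.69 to 0.44 for PRTN3. NCF1 at 48 h was -0.15 with the trend removed, with or without the block, and -0.03 to 0.33 without 1 library. The cause was not tested. Low counts limit CSF2RA, LILRB1, LILRB2 and CLEC7A.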
